A study of Mus musculus with 9 samples.

Results

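The data are the open chromatin of D2A1-d cells carrying either of 2 short hairpin RNAs against Med4, shMed4 #4 and shMed4 #1, compared with each other. D2A1-d is a mouse breast carcinoma line, labelled wild type and kept in medium with serum. The members are the 6 hairpin libraries, 3 biological replicates of each hairpin, out of 9 in the series, and all 146734 peaks of 501 bp entered. The other 3 libraries carried a non-targeting control hairpin (NTC) and serve here only to tell which hairpin lay away from control. All cells were transduced, and the labels do not say whether a group is a clone or a pool, or whether the replicates were separate transductions.

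Mediator is the large complex that passes signals from transcription factors at enhancers to RNA polymerase II at promoters, and MED4 is a subunit of its middle module. ATAC-seq uses a transposase that inserts adapters into accessible DNA, so reads in a peak follow how open that stretch was. Different hairpins against a gene share their intended target and can differ in how far they deplete it and in what else they bind. How far each hairpin lowered Med4 was not measured in these data.

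The hairpins differed at the starts of some genes, and 7 windows just upstream of such starts show where. They are RefSeq sequences of GRCm38.p6, the build of the files, 5′ to 3′ on the strand of the gene. Each ends at the base before the listed start and was cut to the part inside the peak. Capitals mark any match on either strand to TGANTCA (the AP-1 motif), GGAATG (TEAD), TGACGTCA (cyclic AMP response element), GGGCGG (GC box), CCAAT and TATAAA. The first was the second-highest peak at a gene end, and the next 3 and last 3 had the highest and lowest differences among windows wholly inside a called peak, chosen after the values were seen. Tmsb15b1 and Tmsb15l, thymosin beta genes, share the listed start. Aspg encodes an asparaginase, Fam111a a protease that acts at replication forks, Dnmt3b a de novo DNA methyltransferase, Akr1c13 an aldo-keto reductase, Orm3 an orosomucoid and Ctla2a a cathepsin inhibitor.
Aspg (chr12:112106487-112106682, plus strand): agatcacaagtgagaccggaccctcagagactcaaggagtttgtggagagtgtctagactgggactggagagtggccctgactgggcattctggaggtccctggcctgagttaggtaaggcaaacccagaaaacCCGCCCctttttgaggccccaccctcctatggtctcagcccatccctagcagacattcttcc
Tmsb15b1 (chrX:136976875-136977124, minus strand): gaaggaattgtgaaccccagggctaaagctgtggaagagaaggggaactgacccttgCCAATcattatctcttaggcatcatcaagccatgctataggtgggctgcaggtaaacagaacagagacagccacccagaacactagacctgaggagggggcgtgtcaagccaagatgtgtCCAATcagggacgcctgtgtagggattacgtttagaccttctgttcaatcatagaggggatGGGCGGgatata
Fam111a (chr19:12573260-12573509, plus strand): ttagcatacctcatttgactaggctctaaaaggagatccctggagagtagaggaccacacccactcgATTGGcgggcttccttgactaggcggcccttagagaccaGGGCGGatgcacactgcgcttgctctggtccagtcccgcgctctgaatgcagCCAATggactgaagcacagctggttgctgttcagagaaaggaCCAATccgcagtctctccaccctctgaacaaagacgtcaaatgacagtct
Dnmt3b (chr2:153649199-153649448, plus strand): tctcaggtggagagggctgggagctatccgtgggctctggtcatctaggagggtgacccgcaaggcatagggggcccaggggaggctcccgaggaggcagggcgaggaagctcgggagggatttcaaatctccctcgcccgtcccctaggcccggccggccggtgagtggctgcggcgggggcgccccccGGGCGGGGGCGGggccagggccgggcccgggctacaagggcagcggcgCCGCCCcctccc
Akr1c13 (chr13:4190937-4191186, plus strand): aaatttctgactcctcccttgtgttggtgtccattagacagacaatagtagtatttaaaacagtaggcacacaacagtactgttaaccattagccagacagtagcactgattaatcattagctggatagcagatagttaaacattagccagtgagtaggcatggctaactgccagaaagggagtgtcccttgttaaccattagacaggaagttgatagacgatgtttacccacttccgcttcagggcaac
Orm3 (chr4:63355908-63356157, plus strand): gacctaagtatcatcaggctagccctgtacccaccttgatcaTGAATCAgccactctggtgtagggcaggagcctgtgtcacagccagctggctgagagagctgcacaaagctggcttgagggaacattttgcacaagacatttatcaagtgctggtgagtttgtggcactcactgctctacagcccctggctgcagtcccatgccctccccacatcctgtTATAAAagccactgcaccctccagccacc
Ctla2a (chr13:60936626-60936875, minus strand): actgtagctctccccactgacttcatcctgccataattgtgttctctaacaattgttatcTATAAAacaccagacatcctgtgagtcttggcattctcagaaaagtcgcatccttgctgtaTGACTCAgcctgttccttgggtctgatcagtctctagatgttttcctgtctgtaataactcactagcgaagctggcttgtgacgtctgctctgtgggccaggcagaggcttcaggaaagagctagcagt

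The peak at the Tmsb15l start held 45.6, 36.5 and 35.2 normalised reads with hairpin #1 and 306, 271 and 270 with hairpin #4, against 91.2, 80.1 and 69.5 in NTC. The groups did not overlap, and the hairpins lay on opposite sides of NTC (log2 fold #4 minus #1 2.83, SE 0.17, limma adjusted p = 4.8e-16). Folds here are on the log2 scale of the normalised value plus 1. At Dnmt3b, hairpin #1 left 53.6, 47.9 and 61.6 reads, hairpin #4 166, 175 and 279, and NTC had 333, 362 and 351, so both were below control and #1 far more so (log2 fold 1.87, SE 0.15). Fam111a held 21.6, 16.2 and 24.2 reads with #1, near the 10.5, 35.9 and 24.5 of NTC, and 118, 104 and 79.4 with #4. The Ctla2a start went the other way, with 1010, 916 and 930 reads with #1, 364, 368 and 402 with #4 and 531, 452 and 466 in NTC (log2 fold -1.33, SE 0.07). Akr1c13 held 137, 117 and 112 reads with #1, 77.0, 71.6 and 35.3 with #4 and 50.8, 33.9 and 42.5 in NTC (log2 fold -1.05, SE 0.23). At Orm3, hairpin #1 (434, 389 and 450) was close to NTC (449, 457 and 522) and #4 was low (187, 148 and 212).

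The printed windows of Orm3 and Ctla2a each hold an AP-1 match and a TATAAA match, and that of Akr1c13 holds no match. Those of Aspg, Tmsb15b1, Fam111a and Dnmt3b hold GC boxes, 2 of them abutting at Dnmt3b. Tmsb15b1 and Fam111a also hold CCAAT matches. Of 5909 windows of 250 bases wholly inside a tested peak, 6.14% held the AP-1 letters and 64.8% a GC box, against 6.13% and 42.6% of all 21263 windows in the table. Among all 807 windows in peaks called higher in #4, 8.55% held the AP-1 letters and 65.4% a GC box. In the 846 called lower the shares were 9.57% and 53.1%, so the AP-1 share hardly differed by direction. Among the 31 windows in peaks at least 1.5-fold lower in #4, 13 (41.9%) held the AP-1 letters and 6 (19.4%) a GC box. Among the 101 at least 1.5-fold higher, 18 (17.8%) held the AP-1 letters and 51 (50.5%) a GC box. The median GC content was 50.4% in the lower and 56.0% in the higher of the 1.5-fold sets, against 61.2% in all windows inside peaks. These shares are descriptions, made after the values were seen, and a match is not evidence of binding.

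The libraries grouped by hairpin. Reads in peaks ran from 72.8 to 98.9 M per library with hairpin #1, from 44.8 to 87.6 M with #4 and from 75.5 to 96.1 M in NTC. Between libraries of a group, the chi-square per degree of freedom over all peaks was 1.995 to 2.917, and between #1 and #4 libraries it was 9.96 to 15.37, so no library was a copy of another. The first principal component of the 6 hairpin libraries held 68.4% of their variance and put the #1 libraries at -91.33 to -85.31 and the #4 libraries at 85.46 to 90.92. Epcam, Cdh1 and Krt8, markers of epithelium, had no peak at a gene end. Krt18, a keratin of simple epithelium, was measured, with 160 to 170 reads in NTC, 347 to 379 with #1 and 438 to 510 with #4 (log2 fold 0.33, limma adjusted p = 0.003). Vim, a mesenchymal intermediate filament, held 2940 to 3280 reads with #4 and 3050 to 3090 with #1 and did not differ (log2 fold 0.00). Of 16 immune, 12 endothelial, 10 fibroblast and 10 neural marker genes, 7, 5, 3 and 6 had a gene-end peak. Of all 21900 protein-coding genes, 12521 had one.

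The Med4 locus did not separate the hairpins at its start. The peak at the gene start, chromosome 14, 73509724 to 73510225, held 559, 558 and 516 reads in NTC, 424, 467 and 462 with hairpin #1 and 455, 459 and 494 with #4. The hairpin groups overlapped and both lay below NTC (log2 fold #4 minus #1 0.06, SE 0.07, limma adjusted p = 0.57). A weaker peak in the gene, at 73510689 to 73511190, held 83.2, 66.5 and 91.3 reads with #1 and 69.2, 33.3 and 65.3 with #4. Its call (log2 fold -0.57, SE 0.23, adjusted p = 0.044) was lost in 11 alternatives, among them edgeR, DESeq2 and the fit to 6 libraries. Of 4 peaks 35.0 to 60.7 kb away, that at 73450159 to 73450660 was lower in #4, with 304, 269 and 271 reads in #1 and 229, 183 and 192 in #4 (log2 fold -0.48, SE 0.11). A hairpin targets the messenger RNA, so none of these peaks measures the depletion.

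Over the genome the hairpins differed at many peaks, mostly by small amounts. Of 146729 peaks tested, 61001 (41.6%) were called at a limma adjusted p under 0.05, with 29866 (20.4%) higher and 31135 (21.2%) lower in #4. The median size of the difference over all peaks was 0.23 on the log2 scale. At least 2-fold, 4638 peaks (3.16%) were higher and 1739 (1.19%) lower in #4, 6377 (4.35%) in all. The 6 hairpin libraries did not overlap between groups at 70586 peaks (48.1%). For scale, 77395 peaks (52.7%) were called for #1 against NTC and 74006 (50.4%) for #4 against NTC.

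The peaks with large differences were weak sites far from gene ends. Those at least 2-fold higher in #4 had medians of 76.5 reads in NTC, 51.6 in #1 and 134 in #4, and lay a median of 42.4 kb from a gene end. Those at least 2-fold lower had medians of 111, 223 and 92.8 and lay 46.4 kb away, against 17.3 kb over all peaks. Gene-end peaks are here those with their centre at most 1 kb from the start or the other end of a gene that codes for protein. Among them 149 of 16295 (0.914%) were at least 2-fold higher and 31 (0.19%) lower. Inside genes these shares were 2.83% and 1.19%, and between genes 4.12% and 1.44%. The median level of gene-end peaks relative to other peaks was -0.087, -0.058 and 0.013 (log2) in the #1 libraries and -0.126, -0.021 and -0.004 in the #4 libraries. These overlapped, with a difference of -0.006 (exact permutation test, two-sided, n = 3 per group, p = 0.9, where 0.1 is the smallest possible).

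The direction of the difference followed the height of the peak in control cells. With peaks ranked by NTC level into 10 classes of equal size, 26.0% of the weakest class were called higher in #4 and 12% lower. In the class second from the top, with 766 to 1500 reads in NTC, 17.4% were higher and 35.3% lower, and in the highest class 16.1% and 26.2%. Replicates 2 and 3 of #4 were the shallowest of the 9 libraries. With all libraries thinned to the 44.8 M reads of the smallest, 22% of the weakest class were higher and 9.38% lower. After cyclic loess, which levels the fold across heights by construction, the weakest class had 20.6% higher and 17.7% lower and the second from the top 25.4% and 26.8%. In the highest class the direction turned with the scaling and with a library. It had 27.5% higher and 22.6% lower after cyclic loess, 23.9% and 23.1% with equal totals and 24.3% and 22% without replicate 1 of #4.

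**Figure D1:**
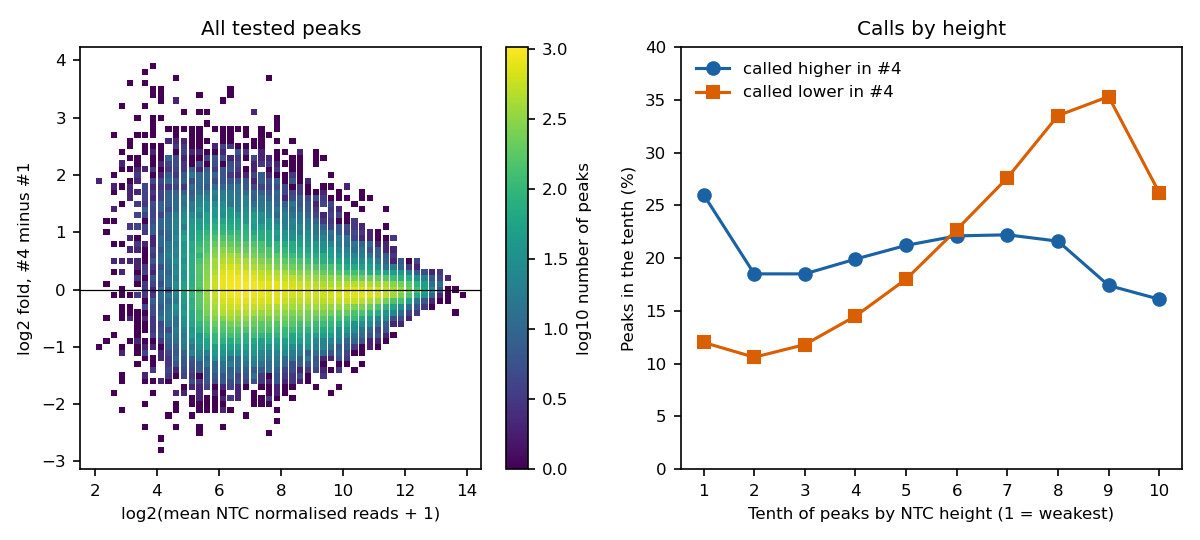
Left, log2 fold of shMed4 #4 minus #1 for all tested peaks against log2 of the mean NTC normalised reads plus 1, coloured by the number of peaks in each cell on a log10 scale. Right, percent of peaks called higher (circles) or lower (squares) in #4 in each of 10 equal classes by NTC height, from 26.0% and 12% in the weakest to 16.1% and 26.2% in the highest.

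Setting both hairpins beside NTC placed the difference with neither hairpin alone. Both comparisons share the NTC libraries, so only counts are given. Of the 61001 called peaks, 17913 (29.4%) were called against NTC with #1 only, 15478 (25.4%) with #4 only and 17669 (29.0%) with both in the same direction, where the hairpins differed in size. Another 4647 (7.62%) were called with both in opposite directions and 5294 (8.68%) with neither. Among peaks at least 2-fold higher in #4, 1599 (34.5%) were called against NTC with #4 only, 1108 (23.9%) in opposite directions and 1054 (22.7%) with #1 only. Among those at least 2-fold lower in #4, 631 (36.3%) were called with #1 only, 571 (32.8%) in opposite directions and 227 (13.1%) with #4 only. The hairpin farther from NTC was #4 in 59.4% of the first set and #1 in 71.5% of the second, against 47.1% (#4) and 52.9% (#1) over all peaks tested. Over all peaks called higher in #4, without the 2-fold limit, #4 was the farther in 48.9%, and over all called lower #1 was in 58.7%. How peaks were called across libraries is not given. A site weak in NTC may be in the set only because a hairpin raised it, so these shares may favour gains over NTC.

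The largest upward differences are given as the 12 highest among called peaks, with 1 peak a gene. Peaks needed a named gene within 100 kb and a mean of at least 50 reads in the hairpin libraries. A site below that in NTC meets the limit only where a hairpin raised it. In bulk cells, a site open in fewer cells and a site less open in each cell cannot be told apart. First came a peak inside Unc5c, a netrin receptor, at chromosome 3, 141552851 to 141553352. It held 6.46, 18.5 and 11.5 reads in NTC, 6.4, 11.4 and 6.6 with #1 and 156, 132 and 95.3 with #4 (log2 fold 3.83, SE 0.38, limma adjusted p = 2.1e-10). Hairpin #1 was level with NTC there and #4 alone was high.

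Stfa3, a stefin that inhibits cysteine proteases, had a peak 8.85 kb away, at chromosome 16, 36463996 to 36464497. NTC held 167, 195 and 193 reads, #1 held 30.4, 45.4 and 30.8, and #4 held 452, 450 and 478 (log2 fold 3.68, SE 0.14). The hairpins parted from NTC in opposite directions without overlap. Naaladl2, a glutamate carboxypeptidase relative, and Thsd7a, a thrombospondin-domain membrane protein, had the same pattern inside the gene. The Naaladl2 peak held 94.4, 79.1 and 93.3 reads in NTC, 51.2, 24.3 and 27.5 with #1 and 383, 366 and 347 with #4 (3.45, SE 0.19). At Thsd7a the values were 63.0, 91.4 and 65.5, then 25.6, 31.6 and 40.7, then 335, 318 and 337 (3.32, SE 0.18).

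Pcdh7, a protocadherin, differed through its whole body. The largest of its peaks, at chromosome 5, 57768571 to 57769072, held 89.6, 76.0 and 76.9 reads in NTC, 9.6, 3.24 and 19.8 with #1 and 141, 119 and 79.4 with #4 (log2 fold 3.50, SE 0.34). Here #1 was low and #4 close to NTC (log2 fold #4 minus NTC 0.44, not called). All 12 peaks inside Pcdh7 were higher in #4, by 1.42 to 3.50. Opcml, a cell adhesion molecule of the IgLON family, had 20 of its 21 peaks higher in #4 (median 1.72), and its highest held 8.8, 16.2 and 19.8 reads with #1 and 121, 146 and 131 with #4 (3.13, SE 0.29).

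The other 6 genes with high peaks were Fign, a microtubule-severing enzyme (3.29), Cntnap5b, a contactin-associated adhesion gene (3.07), Adam12, a membrane metalloprotease (3.07), Fry, a regulator of cell shape (3.06), Olfr920, an odorant receptor (3.03), and Veph1 (2.93). In none of them did the hairpin groups overlap, against 48.1% of all peaks. They were chosen for the largest called folds, so this adds no support. Adam12 shows that such a peak need not stand for its gene: with 55.2, 48.7 and 62.7 reads in #1 and 442, 454 and 520 in #4 at that peak, 8 of the 30 peaks inside the gene were higher and 6 lower. In Fry 10 of 14 inside peaks were higher and none lower, and in Veph1 11 of 13.

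Downward, the lowest was inside Sdk1, an adhesion protein of the immunoglobulin family, at chromosome 5, 141848047 to 141848548. NTC held 16.9, 11.3 and 25.4 reads, #1 245, 245 and 237, and #4 44.1, 43.5 and 19.4 (log2 fold -2.82, SE 0.27, limma adjusted p = 1.3e-10). Lama4, the laminin alpha 4 chain, held 16.1, 16.4 and 20.5 reads in NTC, 155, 145 and 158 in #1 and 17.3, 32.0 and 28.2 in #4 (-2.56, SE 0.27). Both sites were weak in NTC and far higher with #1, where the median over all tested peaks was 195 reads. Of the 2 peaks inside Sdk1 the other was higher in #4, and of 9 inside Lama4 2 were lower and none higher. Over all peaks inside genes and away from gene ends, 22.1% were lower and 19.4% higher.

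Hairpins lay on opposite sides of NTC at Pde1a, a calmodulin-dependent phosphodiesterase (-2.50), at an odorant receptor, Olfr121 (-2.46), and at Hs6st3, a heparan sulfate sulfotransferase (-2.39). The Olfr121 peak, 0.93 kb from the gene, held 186, 196 and 196 reads in NTC, 745, 741 and 723 with #1 and 144, 150 and 109 with #4, 3 tight groups with no overlap. Hs6st3 was less even, with 32.9, 35.8 and 7.06 reads in #4.

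Afap1, an actin-filament adaptor, held 224, 218 and 213 reads in NTC, 824, 798 and 871 with #1 and 163, 160 and 166 with #4 (-2.34, SE 0.09), and 14 of its 21 inside peaks were lower in #4 with none higher. In Trabd2b, a protease that cleaves Wnt proteins, 19 of 25 were lower, the lowest by 2.12 on the log2 scale. The rest were Spcs3, a signal peptidase subunit (-2.37), Ints4, an Integrator subunit (-2.17), Slco3a1, an organic anion transporter (-2.11), Ap1s2, an adaptor of clathrin vesicles (-2.10), and Tmtc2 (-2.05). Each of the 24 highest and lowest peaks kept its call under every alternative run for it. They were chosen as the largest called folds and the alternatives reuse the same libraries, so this is not independent support.

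**Figure D2:**
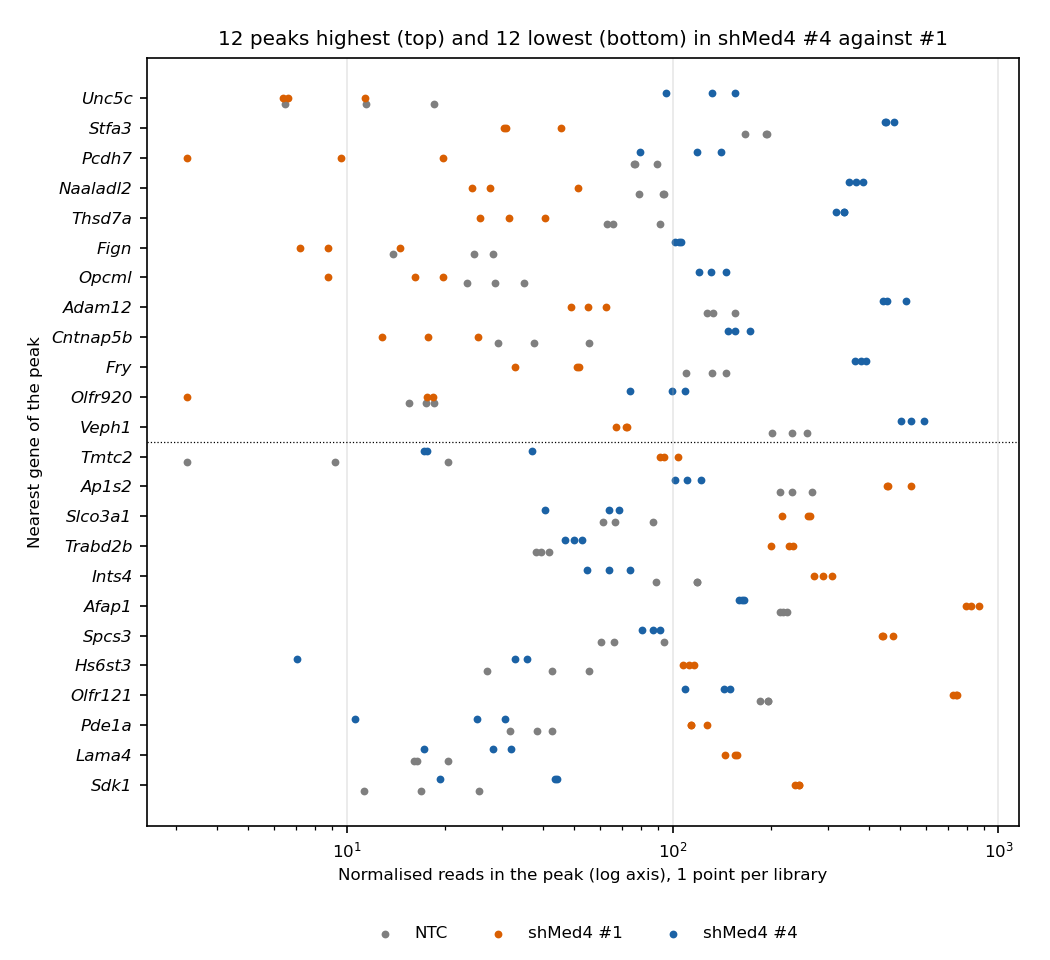
Normalised reads (log axis) in each of the 9 libraries for the 12 peaks with the highest and the 12 with the lowest log2 fold of shMed4 #4 against #1, from 3.83 at Unc5c to -2.82 at Sdk1. In every row the points of #4 and #1 are apart, since peaks were chosen by that fold, and the NTC points show which hairpin moved.

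At gene ends the 6 highest were Tmsb15l (2.83), Aspg (2.59), Ptx3 (2.25), Adamts1 (2.25), Fam111a (2.22) and Kcnv2, a potassium channel subunit (2.12). Ptx3, a secreted pentraxin, lies inside Veph1. Its start peak held 79.1, 75.0 and 93.3 reads in NTC, 33.6, 47.0 and 41.8 with #1 and 189, 215 and 187 with #4. Adamts1, a matrix protease, was high with both hairpins, at 207, 187 and 147 reads with #1 and 823, 843 and 896 with #4 against 106, 94.5 and 96.5 in NTC. That peak sits at the far end of the gene, and the Adamts1 peak with the highest mean, at its start, differed by only 0.27.

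The 6 lowest at gene ends after the same rule were Olfr121, Arhgap17, a GTPase activator (-1.68), Tars2, the mitochondrial threonyl-tRNA synthetase (-1.50), Pus10, a pseudouridine synthase (-1.48), Galr1, a galanin receptor (-1.39), and Mfsd2a, a lysophospholipid transporter (-1.34). Tars2 held 440, 436 and 411 reads in NTC, 1050, 1060 and 1030 with #1 and 373, 368 and 369 with #4. Mfsd2a held 453, 442 and 409, then 1450, 1440 and 1490, then 579, 564 and 593. Hairpin #1 was high in both, with #4 a little below NTC at Tars2 and a little above it at Mfsd2a. None lay at a start listed for its gene, so no promoter of theirs is printed.

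Differences ran in neighbourhoods as well as at single sites. There were 45 stretches of at least 10 consecutive tested peaks all higher in #4, with 557 peaks, and 21 stretches all lower, with 239 peaks. The longest upward stretch, 23 peaks at 167731132 to 167828741 on chromosome 2, holds no named gene and is nearest, at its largest peak, to Cebpb, a leucine zipper transcription factor. Its median level was 600, 665 and 702 reads in the #1 libraries, 884, 804 and 856 in #4 and 1180, 1160 and 1120 in NTC, so both hairpins were below control and #1 lower. Stretches of 19 peaks covered Cebpb, Tmem189 and Ube2v1 and, at 168500175 to 168579993, Nfatc2, a calcium-regulated transcription factor.

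The 17 peaks of the Pcdh7 stretch span 2.47 Mb of chromosome 5 and mixed the classes: 4 were called against NTC with #1 only, 4 with #4 only, 8 in opposite directions and 1 in the same. At its first 5 peaks, outside the gene, #4 lay above NTC, and at the 12 in the gene #1 lay below NTC in every library. Another 17 peaks, on chromosome 15 nearest to Prickle1 at the largest, had a median fold of 0.60.

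Downward, the longest stretch was 17 peaks over 253 kb of chromosome 19, at 15348274 to 15601048, with no named protein-coding gene inside or nearest to its largest peak. Its medians were 230, 223 and 256 reads in #1, 102, 87.0 and 93.5 in #4 and 92.8, 88.3 and 81.0 in NTC, and 10 of its peaks were called with #1 only. A stretch of 14 peaks lower in #4 (median -1.09) on chromosome 15 covers Tafa5, a secreted chemokine-like gene, all 10 of whose inside peaks were lower. The stretch had medians of 260, 260 and 255 reads in #1, 135, 93.4 and 82.0 in #4 and 51.7, 60.1 and 58.1 in NTC. It was above NTC with both hairpins and highest with #1. The others of 14 peaks lay near Nectin1, an adhesion receptor (-0.88), and on chromosome 14 near no named gene (-0.89).

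**Figure D3:**
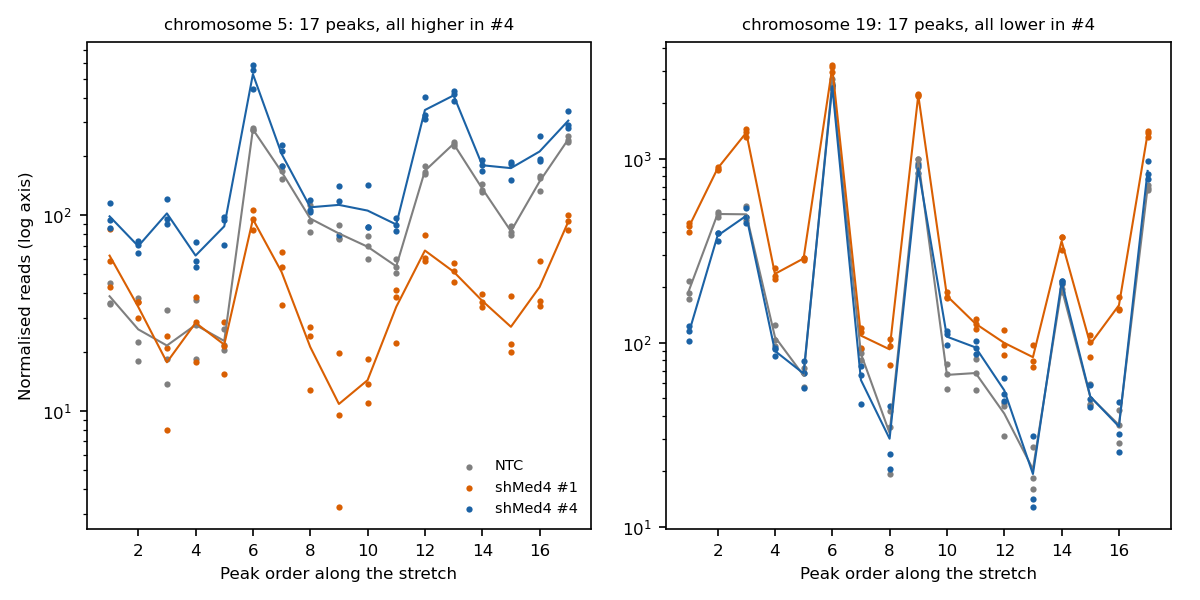
Normalised reads (log axis) in every library at each of 17 consecutive peaks, in order along the chromosome, for the Pcdh7 stretch on chromosome 5 and the longest downward stretch on chromosome 19. Lines join group means. In the first, #4 is above #1 throughout and the NTC line runs low beside #1 at the start and between #1 and #4 later. In the second, the line of #1 is above the other 2 throughout.

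Gene bodies gave the same kind of pattern. Of 2096 genes with at least 10 tested peaks inside, 14 had at least 80% of them higher in #4 and 7 at least 80% lower. This limit was set after the values were seen. Besides Pcdh7, Opcml and Veph1, the upward genes included Ccser1 (15 of 17 peaks, median 1.19), Nell2, a secreted neural growth factor-like protein (10 of 12, 0.82), Prickle2, a planar polarity gene (20 of 23, 0.76), and Jph2, a junctophilin (10 of 11, 0.93). The phagocytic receptor tyrosine kinase gene Mertk (11 of 13, 0.41) and Prex1, a Rac exchange factor (16 of 19, 0.55), are on chromosome 2, as are 5 of the 14. Downward genes besides Tafa5 were Tll1, a tolloid protease (9 of 10, -0.68), Uroc1 (8 of 10, -0.55), Nuak1, a kinase of the AMPK family (8 of 10, -0.54), Fgd6 (14 of 17, -0.44), Btbd11 (22 of 27, -0.40) and Epn2, an endocytic adaptor (8 of 10, -0.34).

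Whole chromosomes were also shifted. The median fold of #4 against #1 ran from -0.13 on chromosome 10 to 0.17 on chromosome 2. On chromosome 2 the library medians relative to the NTC mean were -0.31 in each of the #1 libraries and -0.16, -0.15 and -0.14 in #4. Both hairpins were below NTC there and #1 further. Of its 11557 peaks, 37.4% were higher in #4 and 11.2% lower. Chromosome 10 had medians of 0.06 in each #1 library and -0.06 in each #4 library, with 12.8% higher and 33.6% lower. For both, the exact permutation test over 3 against 3 libraries gave its smallest possible p, 0.1. Most chromosomes reached the same p, among them chromosome 5 with a median of only 0.02, so it does not mark out the extremes.

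Smaller windows showed where this was strongest. Of 266 windows of 10 Mb, 9 had a median of 0.2 or more, 5 of them on chromosome 2, and 2 had -0.2 or less. The highest was chromosome 2 at 160064719 to 169930472 (0.31), which lies around the Cebpb and Nfatc2 stretches, with -0.49, -0.47 and -0.44 in the #1 libraries and -0.18, -0.14 and -0.14 in #4. Its gene-end peaks (0.29) and other peaks (0.33) were shifted alike. In the window on chromosome 6 at 60045456 to 69826311 (0.29) gene-end peaks were not (0.01, against 0.31 for others), and both hairpins lay above NTC. A window on chromosome 18 had 0.29. The lowest windows were chromosome 1 at 140306228 to 149980199 and chromosome 10 at 90068524 to 99997749, both -0.20, followed by chromosome 13 at 100001740 to 109922657 (-0.18). Reads also scale with the number of DNA copies, and no DNA control was analysed here. Openness and copy number therefore cannot be told apart in these medians, or in the stretches and gene bodies of shifted regions.

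**Figure D4:**
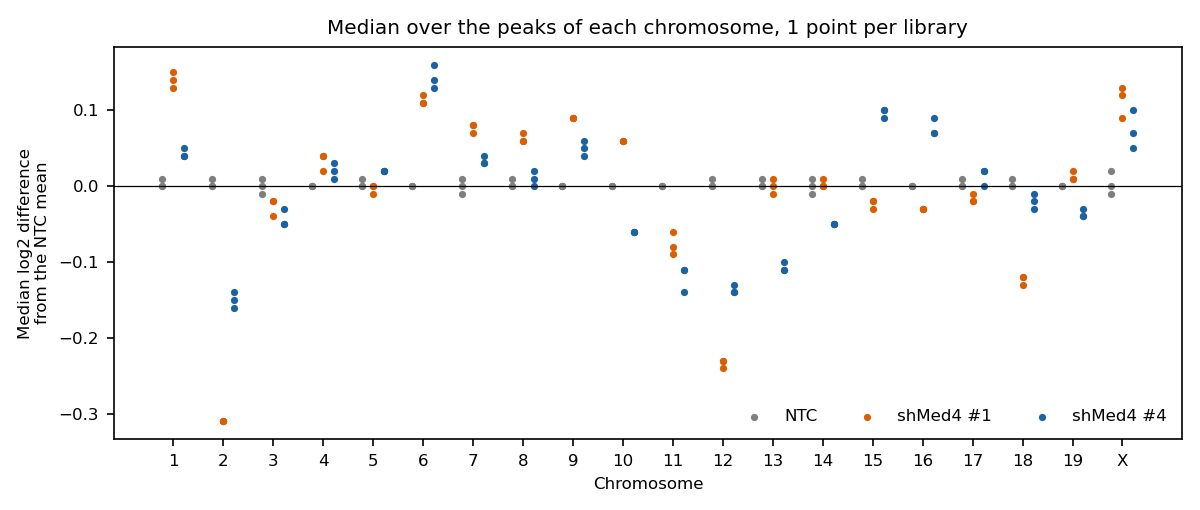
Median log2 difference from the NTC mean over the peaks of each chromosome, 1 point per library, for NTC, shMed4 #1 and shMed4 #4. Libraries of a group lie close together. Hairpins #1 and #4 are furthest apart on chromosome 2 (-0.31 against -0.16 to -0.14). Chromosome 10 (0.06 against -0.06) and, in the other direction, chromosome 15 (-0.03 to -0.02 against 0.09 to 0.1) are about equally far apart.

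The regional shift bears on the gene lists. Each gene was read at its gene-end peak with the highest mean. Over all 12521 genes with such a peak 3797 (30.3%) were called, 1814 (14.5%) were higher in #4 and 1983 (15.8%) lower, with a median fold of -0.02. On chromosome 2, 506 of 983 genes (51.5%) were higher and 25 lower, and elsewhere 1308 of 11538 (11.3%) were higher and 1958 lower. Of 683 genes measured in 25 lists of pathways and gene families, 108 were higher and 105 lower. The shares below are set against those 14.5% and 15.8%.

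Matrix protein genes were more often higher than lower in #4. Of 27 measured collagens and matrix proteins 12 were higher and 5 lower, with a median of 0.12, and with the window medians subtracted the counts were 11 and 4. Thbs1, the matricellular protein thrombospondin 1, on chromosome 2, held 337, 336 and 319 reads in NTC, 125, 157 and 101 with #1 and 327, 262 and 314 with #4 (log2 fold 1.25, SE 0.12, limma adjusted p = 1.1e-10). Hairpin #1 was low and #4 at the level of NTC. Fbln1, a basement membrane fibulin, was between 433 and 571 reads in #1, 705 and 880 in #4 and 583 and 635 in NTC (0.68), and 7 of its 10 inside peaks were higher. Ccn4, a matricellular protein (0.49), Col6a1 (0.34), Col6a2 (0.35) and Spp1, osteopontin (0.37), were higher too. Postn, periostin (-0.56), and the paired basement membrane collagens Col4a1 and Col4a2, read at the same peak (-0.37), were lower.

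Among 35 matrix proteases, crosslinking enzymes and inhibitors, 7 were higher and 6 lower. Lox, the lysyl oxidase that crosslinks collagen, held 220, 229 and 224 reads in NTC, 79.2, 73.0 and 70.4 with #1 and 216, 203 and 192 with #4 (1.45, SE 0.13). As at Thbs1, #1 was low and #4 near control. Mmp19, a matrix metalloprotease, was low with both hairpins and lowest with #1, at 115, 190 and 136 reads against 260, 263 and 284 in #4 and 389, 402 and 375 in NTC (0.90). Loxl4, another lysyl oxidase (-0.37), and the proteases Mmp3 (-0.53) and Mmp13 (-0.36) were lower in #4.

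Focal adhesion and actomyosin genes had 12 of 42 higher and 5 lower, with a median of 0.03. With window medians subtracted they had 6 higher and 7 lower, and without replicate 1 of #1 6 were higher, so the excess of higher members was not stable. Tagln, a smooth muscle actin-binding protein, held 55.2, 51.9 and 66.0 reads in #1, 106, 146 and 178 in #4 and 79.1, 102 and 83.4 in NTC (1.27). Myl9, a myosin light chain gene on chromosome 2, was above NTC with both hairpins and highest with #4 (0.67). Mylk, myosin light chain kinase (0.52), was below NTC with both hairpins and lowest with #1, and Rhob, a small GTPase, was low with #1 (0.34). Rhoa (-0.24) and Flna, filamin (-0.34), were lower in #4. Of 13 integrins 2 were higher, Itgb7 (0.76) and Itga8 (0.47), and 2 lower. Itga1, a collagen-binding integrin, held 2100, 2130 and 2070 reads in NTC, 2140, 2090 and 2170 with #1 and 1540, 1460 and 1520 with #4 (-0.50, SE 0.05), so #4 alone was low, and 8 of its 13 inside peaks were lower.

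Of 24 CDK inhibitors, Rb family and p53 targets, 1 was higher and 8 lower, with a median of -0.04, and 2 and 7 with window medians subtracted. Bbc3, the apoptosis gene PUMA, held 1920, 1780 and 1820 reads in #1, 1390, 1510 and 1690 in #4 and 1590, 1480 and 1620 in NTC (-0.27). Rbl2, of the Rb family (-0.23), Mdm2, the ligase that limits p53 (-0.25), and Cdkn2b, a CDK inhibitor (-0.20), were lower, and Fas, a death receptor, higher (0.35). For 51 cell cycle and replication genes 8 were higher and 6 lower. Of the 8 of them on chromosome 2, 7 were higher, among them Mybl2 (0.31), Cdc25b (0.25), Pcna (0.24) and Aurka (0.22), and with window medians subtracted none of the 51 was called higher. Kif11, a mitotic kinesin (-0.28), and Cdk2 (-0.28) were lower.

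None of 42 Polycomb and SWI/SNF subunits was called higher and 7 were lower, near the background share, among them Phc3 (-0.35), Eed (-0.31) and Pcgf6 (-0.31) of Polycomb and Smarca4 (-0.26) of SWI/SNF. After cyclic loess 3 were higher and 4 lower. Among 31 Mediator subunits 2 were higher and 6 lower, with 6 and 2 after cyclic loess, so the balance turned with the scaling, and with 3 or 13 lower without replicate 1 or 3 of #4. Med19 (0.30, on chromosome 2, at a peak shared with the end of Tmx2) held 3600, 3220 and 3310 reads in #1 and 3950, 4070 and 4450 in #4. Med15 (-0.22) and Ccnc, cyclin C of the kinase module (-0.20), were lower. Hairpins are processed by the RNA interference machinery, of which 5 of 13 genes were higher and 2 lower. Ago3, an Argonaute (-0.37), was the largest, and Drosha and Dicer1 (both 0.18) overlapped between hairpins. With window medians subtracted none was called higher, and without replicate 1 of #1 only 1 was.

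Inflammatory and stress genes went both ways. Of 26 NF-kB and inflammatory genes 9 were higher and 7 lower. The cytokine genes Il1b (0.87) and Il1a (-0.74), neighbours on chromosome 2, differed in opposite directions. Tslp, an epithelial cytokine, held 354, 432 and 336 reads in #1, 548, 579 and 577 in #4 and 669, 661 and 700 in NTC (0.61). Cxcl5 (0.36) and Nos2 (0.46) were higher and Cxcl2 (-0.38) lower. Of 23 interferon and RNA-sensing genes 4 were higher and 2 lower. Rsad2, an antiviral enzyme, read 14451 bp from its listed start in a stretch of 13 peaks, held 38.4, 38.9 and 39.6 reads in #1 and 113, 139 and 102 in #4 (1.57). Ifit1, an interferon-induced gene whose peak is shared with another gene's end, was low with both and lowest with #4 (140, 119 and 116 reads against 291, 255 and 250 in NTC; -0.76).

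Of 22 AP-1 and immediate early factors 3 were higher and 5 lower, with 3 and 1 after the window medians were subtracted. Atf3 (-0.32), high with #1 alone, lost its call there, and Nr4a3 (-0.34) did not. Of 17 MAP kinase phosphatases and Sprouty genes none was higher and 2 were lower, Dusp5 and Spred2 (both -0.19). Both calls were lost with the window medians subtracted, and that of Spred2 also without replicate 1 of #4. With the medians subtracted other members were called, 1 higher and 2 lower. Fth1, the ferritin heavy chain of 27 redox and iron genes (3 higher, 5 lower), held 1780, 1890 and 1800 reads in #1, 816, 895 and 933 in #4 and 953, 972 and 921 in NTC (-1.05, SE 0.06). That peak lies 1930 bp from its start and at the ends of 2 genes.

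Among signalling and lineage genes, Ccn2, a YAP target and matricellular gene, held 80.8, 81.1 and 86.9 reads in #1, 162, 141 and 208 in #4 and 123, 118 and 130 in NTC (1.01), and Edn1, endothelin 1, was below NTC with both and lowest with #1 (0.41). Over 29 YAP and TEAD targets 3 were higher and 4 lower. Fst, the activin inhibitor follistatin, was high with #4 (0.98) and Tgfb2 lower (-0.63), among 33 TGF-beta and BMP genes with 8 higher and 5 lower, or 4 higher without replicate 1 of #1. Csn3, a milk casein, held 72.8, 51.1 and 46.2 reads in #1 and 178, 161 and 166 in #4 (1.58). Of 15 epithelial genes 5 were higher and 3 lower, with Rab25 (0.97, at a peak shared with Mex3a), Cldn1 (0.46) and Krt18 (0.33) higher and Krt15 (-1.05) lower. Of 27 dormancy-linked genes 5 were higher and 4 lower, and none was lower without replicate 3 of #1. Ddr1, a collagen receptor kinase (0.86), and Mertk (0.49) were higher.

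In the remaining lists, Wnt genes had 5 of 28 higher and 2 lower, axon guidance genes 5 and 5 of 29, glycolysis and hypoxia genes 2 and 3 of 30, ribosomal protein genes 4 and 7 of 67, Hox, Meis and Pbx genes 0 and 3 of 17, mammary markers 4 and 3 of 17 and mesenchymal genes 1 and 1 of 16. Some of these counts turned with the scaling. After cyclic loess, glycolysis and hypoxia genes had 11 higher and 3 lower, and ribosomal protein genes 14 and 5. Without replicate 1 of #4, 8 glycolysis and hypoxia genes and 12 ribosomal protein genes were higher. Marker genes of other cell types had 2 higher and 1 lower of 7 immune, 2 and 1 of 5 endothelial, 1 and 0 of 3 fibroblast and 3 and 0 of 6 neural genes. Cdh5, the endothelial cadherin, held 415, 413 and 472 reads with #1, against 276, 303 and 268 with #4 and 236, 231 and 250 in NTC (-0.61). The other called endothelial genes, Tie1 (0.53) and Nos3 (0.13), were higher in #4. Their calls were lost in 4 alternatives for Tie1 and 13 for Nos3.

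**Figure D5:**
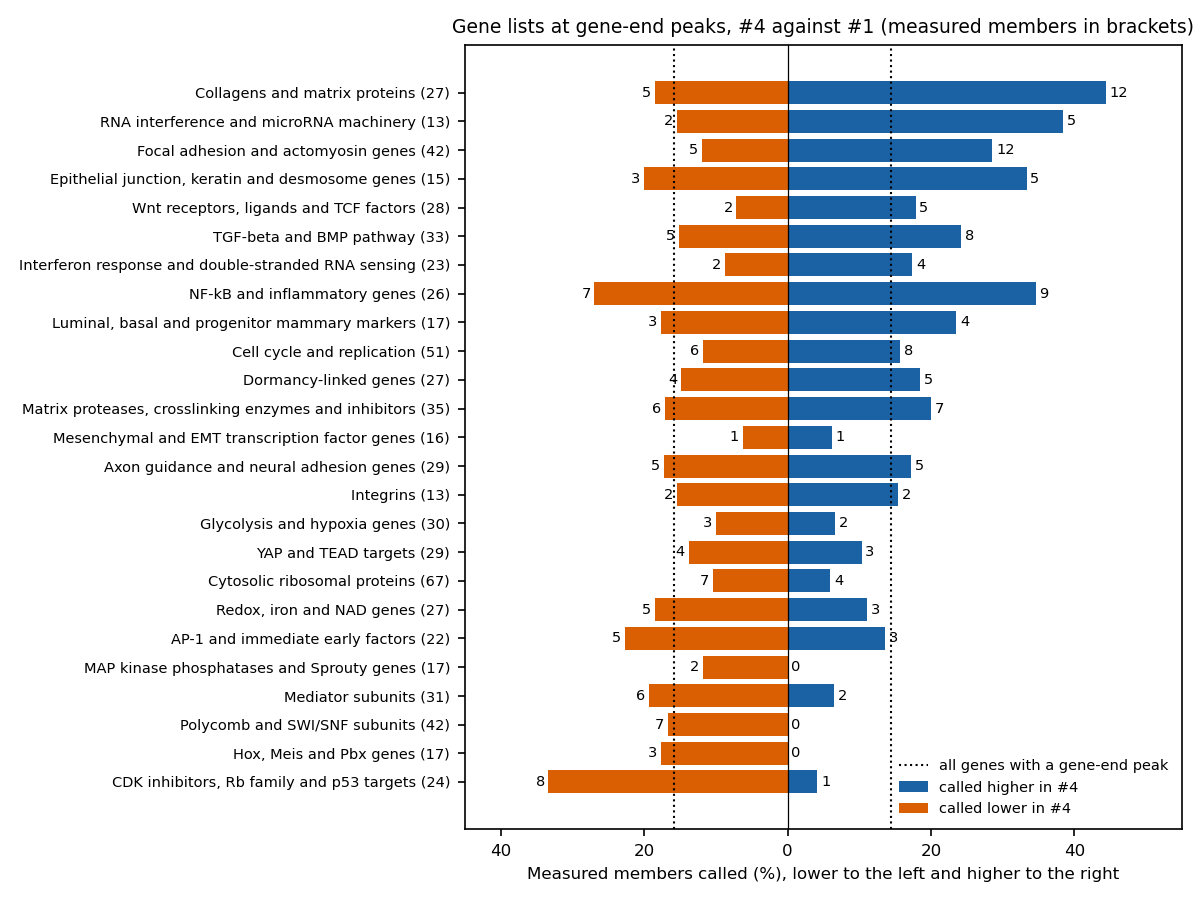
Percent of the measured members of each gene list called higher (right) or lower (left) in shMed4 #4 than in #1 at the gene-end peak, with counts beside the bars. Dotted lines mark the shares over all 12521 genes, 14.5% higher and 15.8% lower; collagens and matrix proteins have 12 higher of 27 and CDK inhibitors, Rb family and p53 targets 8 lower of 24.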

How the data were processed

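Libraries of D2A1-d cells were grouped by their titles into NTC, shMed4 #1 and shMed4 #4, with 3 replicates each. The table deposited by the authors holds signal, read counts per peak scaled to size factors (DESeq2, per the name of that deposited table). Trim Galore, BWA, MACS2, featureCounts and Subread, with mm10 and GRCm38 as builds, are named in the submitters' processing notes. Whether libraries were pooled to call peaks, and whether coordinates count from 0, are not given in the sources used here. The latter could move the edge of a printed sequence by 1 base. Dividing each column by its step gave whole reads for 100% of values (within 0.0001 of a read).

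The main test was limma 3.58.1 in R 4.3.3 with a trend, on log2 of the value plus 1, over all 9 libraries. It covered the 146729 peaks whose mean reached 10, leaving out 5, with calls at a Benjamini-Hochberg adjusted p under 0.05. Recovered reads were tested with edgeR 4.0.16 and DESeq2 1.42.0 as alternatives. The p-values rest on the spread among libraries, which may be technical. Gene ends and names came from RefSeq (GRCm38.p6), where the gene table gives no strand, and a peak away from gene ends was given the nearest gene up to 100 kb off, which does not show that it acts on that gene. Promoter windows were at hand for 17492 genes, none on chromosome 18. No peak was labelled as exon, intron or untranslated region.

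Members, lists, tests and the naming rule were chosen with earlier results of these data known. The rule took every Med4 peak, the 12 highest and 12 lowest folds, the 6 highest and 6 lowest at gene ends, 3 each way among peaks on opposite sides of NTC, the 3 members of each list with the lowest p, and the longest stretches, of which 1 is not reported here. Other list members and gene bodies were named after their values were seen. The fit was tested on simulated data. Alternatives changed the pseudocount, filter, scaling, tool, threshold, windows and libraries used, and thinning to the smallest library and reading lists at gene starts were added after seeing the data. Python 3.11.15, numpy 2.4.6, pandas 2.3.3, scipy 1.17.1 and matplotlib 3.10.9 were used.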

Additional observations from a re-analysis of the deposited data

Results flagged for a closer look

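Results are given here because the hairpins moved peaks to opposite sides of NTC, by the contrast of #4 against #1 in the same fit. Such peaks numbered 4647 among those called between the hairpins. The largest upward were at Stfa3 (log2 fold #4 minus #1 3.68), Naaladl2 (3.45) and Thsd7a (3.32), and the largest downward at Pde1a (-2.50), Olfr121 (-2.46) and Hs6st3 (-2.39). In each of these 6 the libraries of #4 and #1 did not overlap, which follows from choosing the largest called folds (48.1% of all peaks did not overlap). Why they part was not tested.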

How the results depend on the processing

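Counts of called peaks ranged over all alternatives from 21872 to 33543 higher and 23111 to 32563 lower in #4. Stretches of peaks were the least stable counts. Upward stretches (45) fell to 25 with the 10 Mb medians subtracted, 19 at an adjusted p under 0.01, 28 after thinning, 24 to 45 when a library was left out and 1 at a minimum of 20 peaks. Downward stretches (21) fell to 13 when centred on gene-end peaks, 12 with equal totals, 10 with the medians subtracted, 13 with DESeq2, 7 at an adjusted p under 0.01, 7 after thinning, 11 to 21 when a library was left out and 0 at the minimum of 20. The chromosome 2 median was 0.16 with a pseudocount of 5 and with a mean of at least 50, 0.2 with equal totals, 0.0 by construction with window medians subtracted and 0.16 to 0.17 without any library. Windows at least 0.2 from 0 (11) numbered 0 with medians subtracted, 33 at 5 Mb and 9 to 13 without a library. List members called higher (108 of 683) numbered 176 after cyclic loess, 71 at an adjusted p under 0.01 and 76 to 158 without a library. At peaks near gene starts 66 were higher, but only 468 list members were measured there. Those lower (105) numbered 65 at that threshold, 69 when a gene's end peaks were averaged and 73 to 130 without a library. At an adjusted p under 0.01, 10297 peaks were in the same direction against NTC and 2553 in opposite directions, and peaks called with neither hairpin numbered 4362 to 8049 without a library. Gene-end minus other peaks (-0.006) turned to 0.034 after cyclic loess and 0.0 with window medians, and ran from -0.03 to 0.034 without a library, highest without replicate 1 of #4 and 0.02 without replicate 3 of #1.

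The Med4 peak at 73474755, not called, turned to 0.002 with equal totals, 0.022 after cyclic loess, 0.059 with window medians, 0.03 without replicate 1 of #1 and 0.027 without replicate 3 of #4, in a range of -0.103 to 0.03 without any single library. With window medians, Dusp6 turned to 0.083 and Mybl2 to -0.002. The cause of these changes was not tested. Of 3170 alternative values for named peaks, 76 lost the call, at 20 peaks. To look for pairing, the mean of each group was subtracted from its libraries. These deviations correlated at 0.073, -0.011 and 0.054 between same-numbered libraries of the 2 hairpins. Between differently numbered ones they correlated at -0.103 to 0.041. The numbers were not taken as pairs. With the replicate block 31068 peaks were higher and 32563 lower, 4640 and 1739 at least 2-fold.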
